A study of Drosophila melanogaster with 12 samples.

Results

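The expression of 9 genes of glycogen and trehalose metabolism was compared between *dERR* mutant and control larvae of *Drosophila melanogaster*. The genes were taken by name, as *GlyS*, *GlyP*, *AGBE*, *CG9485*, *Pgm1*, *UGP*, *Tps1*, *Treh* and *Tret1-1*. All 9 were found among the 24134 genes listed, and all 9 were among the 10069 genes with values high enough to test. RNA-seq was performed on poly-A RNA from 12 samples, with 3 samples in each of 4 groups. Mutants carried *ERR[1]* over *ERR[2]*, and controls were *ERR[1]/+* heterozygotes, so every larva in the study carried 1 copy of *ERR[1]*. For each genotype, RNA was prepared from dissected fat bodies and from homogenates of whole animals, all from mid-L2 larvae. According to the labels the larvae were raised at 25 °C for 60 h on molasses agar with yeast, whereas the RNA methods give a slightly later age. The methods describe crosses of balanced *ERR[1]* mothers with *ERR[2]* or *w1118* males. The paternal chromosomes, the second chromosome 3 among them, thus differ in origin between mutants and controls. They also call the sets of dissected larvae technical replicates, so the p-values may measure only the spread between sets of larvae from one collection.

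Glycogen is the branched glucose polymer that animal cells keep as an internal store, and in larvae much of it is held in the fat body and the muscle. Trehalose is a disaccharide of glucose and the main sugar of insect hemolymph. The fat body makes it and releases it, and other tissues cleave it back to glucose. Both sugars are built from UDP-glucose, so the pathways share their first steps. dERR, encoded by *ERR*, is the only fly member of the estrogen-related receptor family of nuclear receptors and is known as a regulator of larval carbohydrate metabolism.

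The deposited values are regularized log2 counts. Read counts were divided by the size factor of each sample, put on a log2 scale and shrunk toward the mean of the gene. A difference of 1 is a 2-fold change of these shrunken values, so the folds given may be smaller than those of the counts. The values are not divided by transcript length, so levels were compared between samples and not between genes. The sequencing depth of each sample is unknown from these values. Pairs of samples in 1 group correlated at 0.958 to 0.981 across all tested genes. Fat body control 7 was the sample farthest from the rest of its group, with a median absolute deviation of 0.291. Its summed level of 8 muscle markers was 11.1 on the log2 scale, against 9.04 and 9.44 in the other fat body controls and 8.89 to 9.64 in the fat body mutants. The 7 fat body markers in the table (of 8 listed) summed to 19.56 to 20.04 in the fat body samples and to 17.04 to 17.42 in whole animals. Of these 7, 1 passed as lower and 2 as higher in mutant fat bodies, and 0 and 2 in mutant whole animals. In the whole animals, the summed level of the epidermis and cuticle markers was 10.48 to 10.60 in controls and 9.41 to 10.03 in mutants. The largest part of that sum is *kkv*, with means of 10.3 and 9.22. Of the 4 tested, 0 passed as lower and 1 as higher, with a median change of 0.16. The hemocyte markers summed to 11.79 to 12.33 and 11.46 to 11.60, and 0 of 6 passed. Midgut markers summed to 15.26 to 15.37 in controls and 15.35 to 16.12 in mutants. Of 8 tested, 1 passed as higher and 0 as lower, with a median change of 0.62. Muscle markers summed to 18.46 to 18.78 and 18.74 to 18.89, and 0 of 8 passed. Salivary gland markers summed to 10.07 to 10.29 and 9.56 to 9.90, and 0 of 3 tested passed. In fat bodies their sum was 8.84 to 9.09 in controls and 8.39 to 8.59 in mutants, and 1 of 3 passed as lower. The largest part of that sum is *CrebA*, with means of 8.97 and 8.32. The low means of *sage* (2.4 and 3.49) and *PH4alphaSG1* (0.54 and 1.66) were higher in mutants. The median change of the 3 was 1.09, and 0 passed as higher. The part of these differences in the results was not tested. In bulk samples, fewer cells of a type and less RNA per cell cannot be told apart.

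*ERR* itself was measured at 9.11, 9.24 and 8.29 in the fat body controls and at 8.40, 8.25 and 8.39 in the fat body mutants. The groups overlapped through control 7, and the change was -0.53 (SE 0.21, limma adjusted p = 0.0948). In whole animals *ERR* lay at 8.16, 8.39 and 8.37 in controls and 8.21, 8.28 and 8.01 in mutants, a change of -0.14 (SE 0.21, adjusted p = 0.959). What the *ERR[1]* and *ERR[2]* alleles change in the transcript is not given in the sources used here, so the RNA level of *ERR* does not check the genotype labels.

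In mutant fat bodies 5 of the 9 genes fell, *Tret1-1* rose, and *GlyP*, *AGBE* and *Tps1* did not pass the test. Among all genes tested, 11.2% fell and 11.1% rose in fat bodies (limma, adjusted p under 0.05). In mutant whole animals 6 of the 9 fell, *Tret1-1* rose, and *Tps1* and *Treh* did not pass, whereas 2.56% of all genes fell and 0.725% rose. The 73 genes behind the last share became 41 without whole animal mutant 1, 44 to 46 without a whole animal control and 111 without fat body control 7. Against a log2 change of 1, with limma's treat test, 3 of the 9 were still lower in fat bodies (*GlyS*, *CG9485* and *Pgm1*), where 1.42% of all genes were. In whole animals 4 of the 9 were (*GlyS*, *CG9485*, *Pgm1* and *UGP*), with 1.11% of all genes. The 9 genes had a median change of -0.918 in the dissected tissue and -1.523 in the whole larvae, beside -0.072 and 0.01 over all genes tested.

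**Figure D1:**
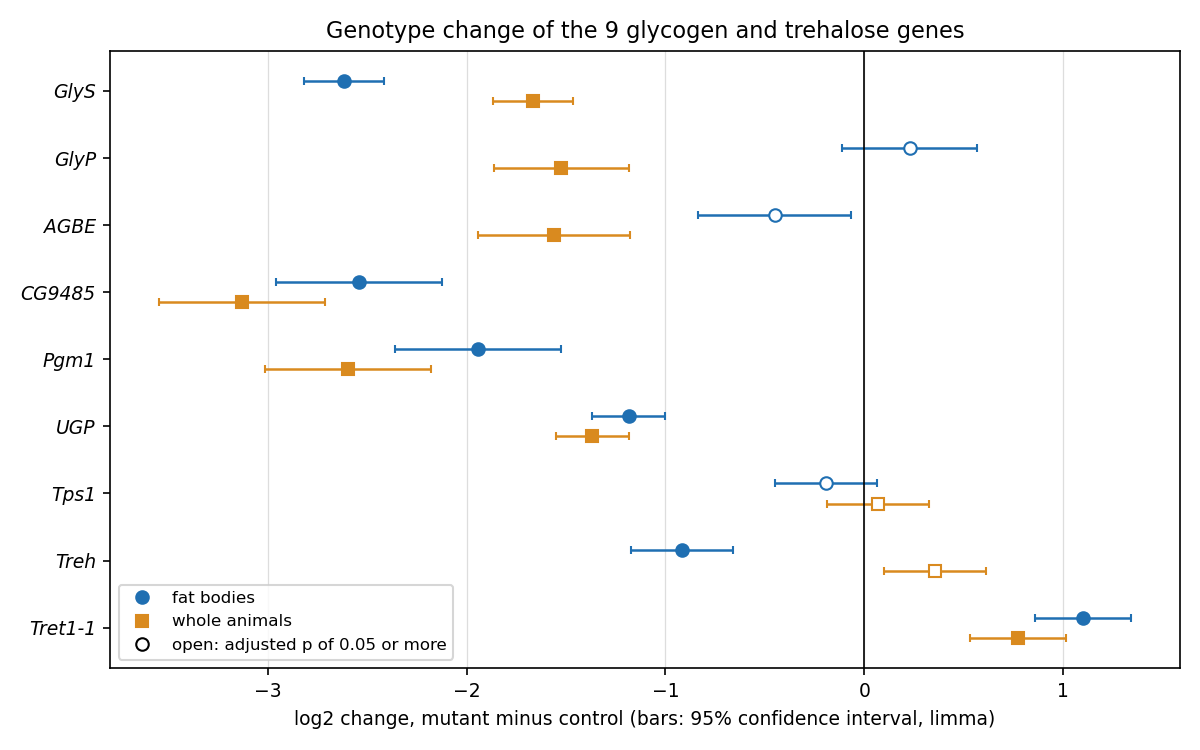
Log2 change of each of the 9 genes (mutant minus control, horizontal axis) in fat bodies (circles) and whole animals (squares), with 95% confidence intervals from limma and open symbols where the adjusted p was 0.05 or more. *GlyS*, *CG9485*, *Pgm1* and *UGP* lie below 0 in both kinds of sample, *Tret1-1* lies above 0 in both, and *GlyP* lies at 0.23 in fat bodies and at -1.52 in whole animals.

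The steps that feed both sugars come first. *Pgm1* encodes phosphoglucomutase, which interconverts glucose-6-phosphate and glucose-1-phosphate (FBgn0003076, chromosome arm 3L, 16126018 to 16128531, minus strand, BDGP6.54). In fat bodies it was at 12.86, 12.67 and 12.40 in controls and at 10.29, 11.03 and 10.77 in mutants. In whole animals the values were 11.66, 11.53 and 11.70 in controls and 9.32, 8.84 and 8.94 in mutants. The groups were apart in both kinds of sample, by more than 1 log2 unit in each. *Pgm1* fell 3.85-fold in fat bodies (log2 change -1.94, SE 0.19, adjusted p = 3.55e-05) and 6.04-fold in whole animals (-2.60, SE 0.19, adjusted p = 1.83e-05).

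*UGP* encodes UTP-glucose-1-phosphate uridylyltransferase, the enzyme that makes UDP-glucose (FBgn0035978, 3L, 9350867 to 9358935, minus strand). It was at 13.01, 12.92 and 12.72 in control fat bodies and at 11.69, 11.72 and 11.68 in mutant fat bodies. Whole animals gave 11.34, 11.43 and 11.49 for controls and 10.17, 9.95 and 10.04 for mutants. The 3 mutant fat bodies lay close together (SD 0.02, n = 3), the tightest group of any of the 9 genes. *UGP* fell 2.27-fold in fat bodies (-1.19, SE 0.08, adjusted p = 3.53e-06) and 2.58-fold in whole animals (-1.37, SE 0.08, adjusted p = 4.43e-06).

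*GlyS* encodes glycogen synthase, which adds UDP-glucose to the growing chain (FBgn0266064, 3R, 15141843 to 15147531, minus strand). The fat body controls were at 12.08, 12.05 and 11.97, and the mutants at 9.55, 9.26 and 9.44. For whole animals the controls were at 11.58, 11.48 and 11.59, and the mutants at 10.02, 9.72 and 9.90. Among the controls the fat body samples were thus the higher ones, whereas among the mutants every fat body sample lay below every whole animal sample. The order among the mutants is that of the deposited values and was not checked under other normalizations. The median over all genes tested was 7.08 to 7.12 in mutant fat bodies and 7.95 to 7.96 in mutant whole animals, so centring on it could change that order. *GlyS* fell 6.14-fold in fat bodies (-2.62, SE 0.09, adjusted p = 4.23e-08), at rank 127 from the lowest of 10069 changes, and 3.17-fold in whole animals (-1.67, SE 0.09, adjusted p = 2.51e-06).

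*AGBE* encodes the branching enzyme, which moves pieces of chain to make the branch points of glycogen (FBgn0053138, 2R, 13171401 to 13174796, plus strand). In fat bodies it was at 11.91, 11.62 and 12.08 in controls and at 11.71, 11.11 and 11.44 in mutants, and the groups overlapped. The difference there was -0.45 (SE 0.17, 95% interval -0.83 to -0.07, adjusted p = 0.0914). It was -0.60 without fat body mutant 1 (adjusted p = 0.036) and -0.2952 without fat body mutant 2 (adjusted p = 0.279). In whole animals *AGBE* was at 11.01, 10.70 and 10.93 in controls and at 9.58, 9.21 and 9.17 in mutants, and there it fell 2.95-fold (-1.56, SE 0.17, adjusted p = 0.000338).

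Breakdown of glycogen needs a phosphorylase and a debranching enzyme. *GlyP* encodes glycogen phosphorylase, which releases glucose-1-phosphate from the chain ends (FBgn0004507, 2L, 2130813 to 2137296, plus strand). It was at 13.87, 13.89 and 13.41 in control fat bodies and at 14.00, 13.70 and 14.17 in mutant fat bodies. These groups overlapped, with a difference of 0.23 (SE 0.15, 95% interval -0.11 to 0.57, adjusted p = 0.345), an interval that lies wholly above the change seen in whole animals. It was 0.0707 without fat body control 7 (adjusted p = 0.796), 0.356 without fat body mutant 2 (adjusted p = 0.153) and 0.1212 without fat body mutant 4 (adjusted p = 0.687). After quantile normalization within each tissue it was 0.41 (adjusted p = 0.0294). The whole animals were at 13.78, 13.46 and 13.66 (controls) and at 12.22, 12.02 and 12.09 (mutants), with no overlap. *GlyP* fell 2.87-fold there (-1.52, SE 0.15, adjusted p = 0.000199).

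*CG9485* encodes the glycogen debranching enzyme, which takes down the branches that phosphorylase cannot pass (FBgn0034618, 2R, 21312399 to 21319569, plus strand). In fat bodies it was at 10.51, 10.25 and 10.86 in controls and at 7.60, 8.26 and 8.15 in mutants. Whole controls were at 9.93, 9.83 and 9.87 and whole mutants at 6.94, 6.71 and 6.60, so the groups were far apart in both. *CG9485* fell 5.81-fold in fat bodies (-2.54, SE 0.19, adjusted p = 5.29e-06) and 8.75-fold in whole animals (-3.13, SE 0.19, adjusted p = 4.13e-06). The change in whole animals ranked 132 from the lowest of 10069, lower than that of any other of the 9 genes.

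**Figure D2:**
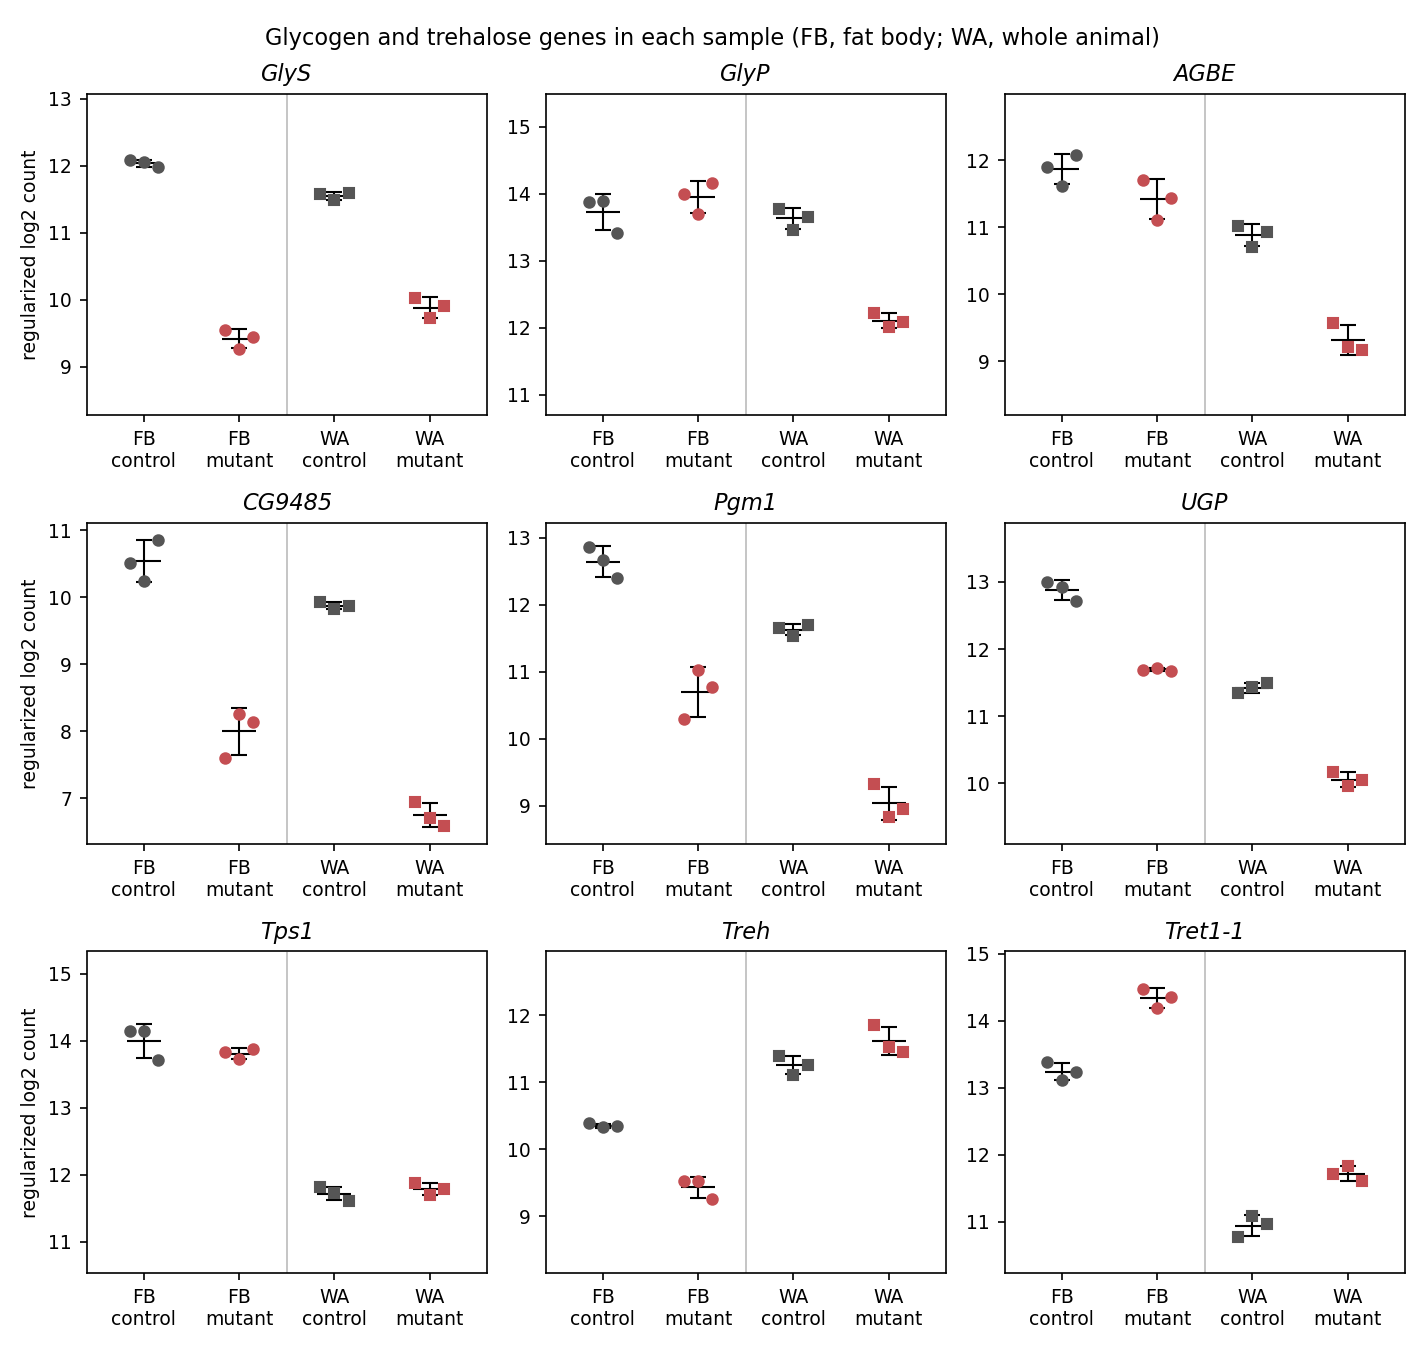
Regularized log2 count (vertical axis, a separate range of the same height for each gene) of the 9 genes in each sample, with the mean and SD of 3 samples as horizontal lines and bars (circles, fat bodies; squares, whole animals; grey, control; red, mutant). The mutant samples of *GlyS*, *CG9485*, *Pgm1* and *UGP* lie below all controls in both kinds of sample, those of *GlyP* do so in whole animals, where they are at 12.02 to 12.22, and those of *Treh* do so in fat bodies, where they are at 9.25 to 9.52.

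The trehalose genes did not move as a block. *Tps1* encodes trehalose-6-phosphate synthase, which joins UDP-glucose and glucose-6-phosphate (FBgn0027560, 2L, 4388327 to 4392778, plus strand). It was at 14.15, 14.14 and 13.71 in control fat bodies and at 13.83, 13.72 and 13.87 in mutant fat bodies, a difference of -0.19 (SE 0.12, 95% interval -0.45 to 0.06, adjusted p = 0.284). The lowest control was sample 7, and without it the difference was -0.34 (adjusted p = 0.0135). In whole animals *Tps1* was at 11.81, 11.74 and 11.61 in controls and at 11.87, 11.70 and 11.79 in mutants. Those groups overlapped, and the 95% interval of the difference, -0.19 to 0.32, bounds it on both sides (0.07, SE 0.12, adjusted p = 0.971).

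*Treh* encodes trehalase, which cleaves trehalose to glucose (FBgn0003748, 2R, 21074018 to 21088945, plus strand). It was at 10.38, 10.33 and 10.34 in control fat bodies and at 9.52, 9.52 and 9.25 in mutant fat bodies, so the groups were apart. *Treh* fell 1.89-fold there (-0.92, SE 0.12, adjusted p = 0.000213). In whole animals it was at 11.39, 11.11 and 11.26 in controls and at 11.85, 11.52 and 11.45 in mutants. Every mutant value lay above every control value, but the difference of 0.35 (SE 0.12) did not pass the test (adjusted p = 0.185).

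*Tret1-1* encodes a facilitated trehalose transporter (FBgn0050035, 2R, 11665768 to 11674782, plus strand), and it was the only one of the 9 genes that rose. It was at 13.38, 13.12 and 13.23 in control fat bodies and at 14.48, 14.19 and 14.36 in mutant fat bodies. The whole animal values were 10.78, 11.09 and 10.96 for controls and 11.72, 11.83 and 11.61 for mutants, so no groups overlapped. *Tret1-1* rose 2.14-fold in fat bodies (1.10, SE 0.11, adjusted p = 3.95e-05) and 1.71-fold in whole animals (0.77, SE 0.11, adjusted p = 0.002). The paralog *Tret1-2* follows it on the same strand (2R, 11675935 to 11678014) and rose as well, by 1.65 in fat bodies (adjusted p = 0.00115) and 1.31 in whole animals (adjusted p = 0.0202). *Tret1-2* had much lower values, at 5.38 to 5.82 in control fat bodies, and reads that the pair shares could be assigned to either gene, so the changes of the pair may not be independent.

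As a check that does not rest on the fit, groups whose 3 mutant and 3 control values did not overlap were counted. In fat bodies 5 of the 9 genes had all mutant values below all control values and 1 had them above. Over all genes tested the shares were 25.8% and 14.2%. In whole animals 6 of the 9 lay below and 2 above (*Treh* and *Tret1-1*), with 13.5% and 13.7% of all genes. With 3 samples a side, 0.1 is the smallest p that a two-sided exact permutation test allows. *GlyS*, *Pgm1* and *UGP* lie on chromosome 3, which also carries *ERR*, and for them the *ERR* alleles and the origin of that chromosome cannot be told apart. *CG9485*, *GlyP*, *AGBE*, *Treh*, *Tps1* and *Tret1-1* lie on chromosome 2. The paternal chromosome 2 also comes from a different stock in each genotype. For all 9 genes, the stock of the fathers and the *ERR* alleles cannot be told apart.

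The interaction of genotype and tissue, tested as the change in fat bodies minus the change in whole animals, passed for 4 of the 9 genes. The change of *GlyS* was more negative in fat bodies by 0.95 log2 units (-0.95, SE 0.13, adjusted p = 0.00112) and that of *Treh* by 1.27 (-1.27, SE 0.16, adjusted p = 0.000853). The change of *GlyP* was more positive in fat bodies by 1.75 (SE 0.22, adjusted p = 0.000665) and that of *AGBE* by 1.11 (SE 0.24, adjusted p = 0.0162). Over all genes tested, 4.39% had a more negative and 5.86% a more positive change in fat bodies. Within each kind of sample, *GlyS* had passed in both, *Treh* in fat bodies, and *GlyP* and *AGBE* in whole animals. For *CG9485* (0.59, adjusted p = 0.216), *Pgm1* (0.65, adjusted p = 0.169), *UGP* (0.18, adjusted p = 0.409), *Tps1* (-0.26, adjusted p = 0.39) and *Tret1-1* (0.33, adjusted p = 0.237) the difference between the tissues did not pass. It passed for *Tps1* without fat body control 7 (-0.41, adjusted p = 0.036) and for *Pgm1* without fat body mutant 1 (0.85, adjusted p = 0.0379), and that of *AGBE* did not pass when genes of low value were kept (adjusted p = 0.0781). Whole animals contain the fat body and every other tissue, so the contrast sets 1 tissue against a mixture that holds it.

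Differences between partner genes within a sample restate the changes above as pairs. The value of *GlyS* minus that of *GlyP*, synthesis against breakdown, averaged -1.69 ± 0.22 (SD, n = 3) in control fat bodies and -4.54 ± 0.16 in mutant fat bodies, a shift of -2.845. The averages of whole animals were -2.08 ± 0.11 in controls and -2.23 ± 0.06 in mutants, a shift of -0.144. Thus the balance of these transcripts moved in fat bodies, while in whole animals both fell by a like amount. For the pair that makes and removes branches, *AGBE* minus *CG9485*, the shift reached 2.088 for the dissected tissue and 1.568 for whole animals, so the debranching transcript was lower relative to the branching transcript in both. Fat body mutant 1 had the widest difference, at 4.105 against 2.843 and 3.295 in mutants 2 and 4. *UGP* minus *Pgm1* shifted by 0.758 in fat bodies and 1.228 in whole animals. *Tps1* minus *Treh* shifted by 0.726 in fat bodies and by -0.285 in whole animals, in opposite directions. These shifts are descriptions and were not tested.

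**Figure D3:**
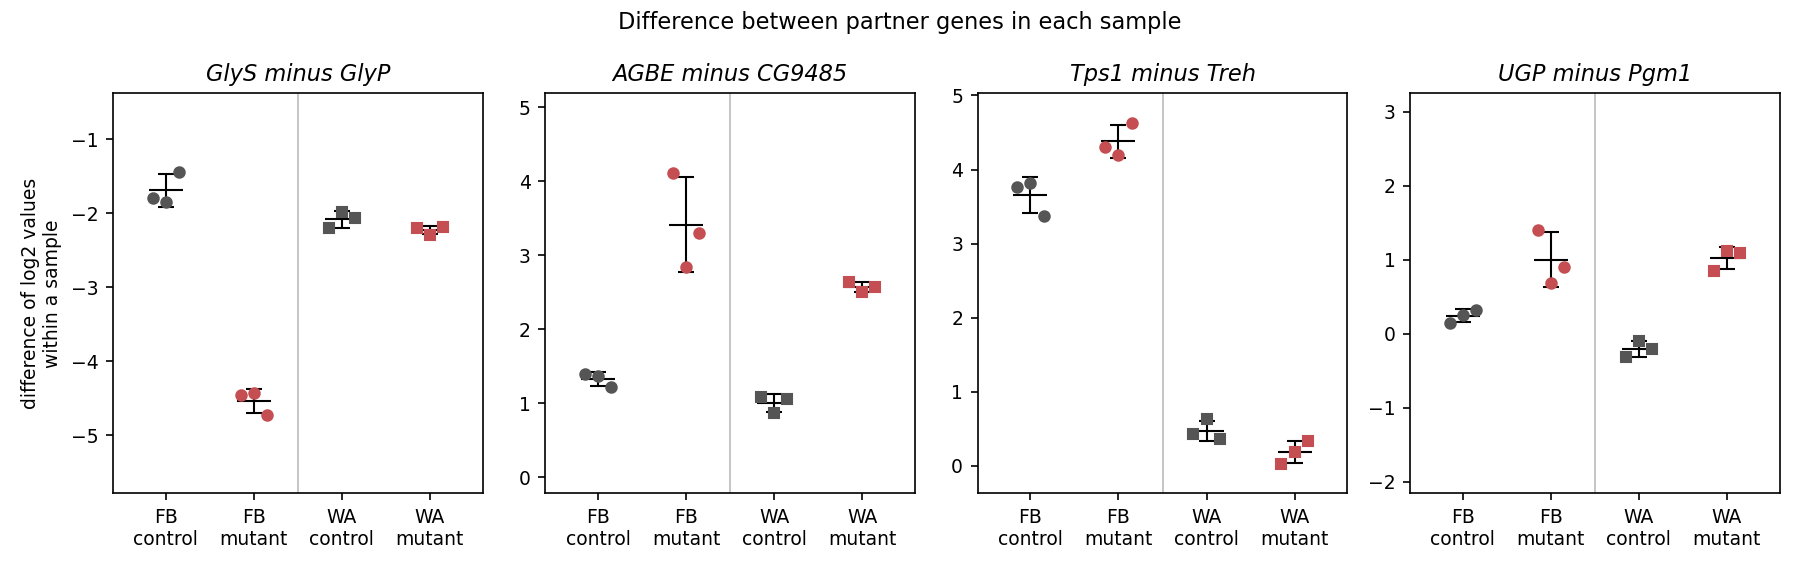
Difference between the log2 values of partner genes within each sample (vertical axis, log2 units; symbols and colours as in the plot of values by sample; lines and bars are the mean and SD of 3 samples). *GlyS* minus *GlyP* lies between -1.84 and -1.44 in control fat bodies and between -4.72 and -4.43 in mutant fat bodies, but between -2.29 and -1.98 in all whole animals.

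The heterozygous controls were also compared by tissue. In control fat bodies 7 of the 9 genes were higher than in control whole animals, *Treh* was lower, and *GlyP* did not differ by the test (0.09, adjusted p = 0.606). *Tret1-1* was higher by 2.30 (adjusted p = 9.87e-09), *Tps1* by 2.28 (adjusted p = 1.64e-08) and *UGP* by 1.46 (adjusted p = 4.25e-08), and these 3 also passed the treat test. *Pgm1* was higher by 1.01, *AGBE* by 0.99, *CG9485* by 0.66 and *GlyS* by 0.48, and *Treh* was lower by 0.90 (-0.90, adjusted p = 3.26e-05). Thus, of the 9 genes, *Tret1-1* and *Tps1* differed most between the tissues. Over all genes tested, 46.8% were lower and 24.9% higher in fat bodies. With each sample centred on its median the split was 33.3% and 50.6%, and after quantile normalization over all samples it was 28.3% and 51.2%, since the median of all genes moves from -0.378 to 0.523 and 0.438. *Treh* did not differ after centring (-0.0037, adjusted p = 0.979), and *GlyP* was higher by 0.99 after centring and lower after quantile normalization over all samples (-0.5261, adjusted p = 0.00143), so no direction is given for *GlyP*. The other 7 genes stayed higher in fat bodies under both.

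Replicate spread of the 9 genes was near that of all genes. In fat bodies the median SD of the 9 was 0.231 for controls and 0.158 for mutants, beside 0.223 and 0.209 over all genes tested. The whole animals gave 0.102 and 0.15, beside 0.134 and 0.164. *CG9485* and *Pgm1* varied most among the mutant fat bodies (SD 0.35 and 0.38), where sample 1 was the lowest for both and the highest for *GlyS*, *AGBE* and *Tret1-1*.

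Other genes of sugar storage and transport were read from a list of 28 names, of which 26 were in the table and 21 could be tested. In fat bodies 10 of the 21 fell and 5 rose, beside the 11.2% and 11.1% of all genes given above. In whole animals 6 fell and 2 rose, beside 2.56% and 0.725%. Their median change was -1.064 for the dissected tissue and -0.135 for whole animals, beside the -0.072 and 0.01 of all genes tested.

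Among the glycogen genes of that list, *Gyg* encodes glycogenin, the protein on which a glycogen chain is started. It was at 10.08, 10.15 and 10.44 in control fat bodies and at 7.75, 7.94 and 8.14 in mutant fat bodies, a 4.85-fold fall (-2.28, adjusted p = 5.7e-07). In whole animals it was at 11.78 to 11.97 in controls and at 11.60 to 11.85 in mutants (-0.22, adjusted p = 0.636), and the difference between the tissues passed (-2.06, adjusted p = 7.59e-05). *Gyg* overlaps *CG44245* on the same strand, so reads of the pair may be mixed. The list has 3 genes for subunits of phosphorylase kinase, the enzyme that activates glycogen phosphorylase, and these fell in both kinds of sample. The catalytic subunit *PhKgamma* changed by -1.18 in fat bodies and -1.19 in whole animals (adjusted p = 1.54e-05 and 6e-05), the regulatory subunits *CG7766* by -1.19 and -0.97 (adjusted p = 1.96e-06 and 3.71e-05), and *CG8475* by -1.27 and -0.83 (adjusted p = 3.77e-06 and 0.000295). So in fat bodies these 3 transcripts of the activating kinase were lower, while that of phosphorylase, its substrate, did not pass the test.

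*Gbs-70E* and *Gbs-76A* encode subunits that bring protein phosphatase 1 to glycogen. *Gbs-70E* rose 4.40-fold in fat bodies (2.14, adjusted p = 5.62e-05), from 9.52 to 9.74 in controls to 11.55 to 11.99 in mutants, and 2.25-fold in whole animals (1.17, adjusted p = 0.0136). *Gbs-76A* was at 9.04 to 9.27 in control whole animals and at 6.85 to 7.27 in mutant whole animals, groups that did not overlap. Its difference of -2.11 did not pass (adjusted p = 0.214), with an SE of 0.72 that includes the scatter in fat bodies, where its values ran from -0.29 to 3.41. Of the remaining glycogen genes, *Pgm2a*, named as a phosphoglucomutase, fell by 1.06 in fat bodies (adjusted p = 2.76e-05), and *sgg*, the fly GSK-3, whose mammalian counterpart phosphorylates glycogen synthase, rose by 0.52 (adjusted p = 0.0127). Neither passed in whole animals (adjusted p = 0.147 and 0.872).

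The list holds further trehalose genes. *CG5171*, annotated as a trehalose-6-phosphate phosphatase, rose 2.36-fold in fat bodies (1.24, adjusted p = 7.83e-05), from 9.81 to 10.17 in controls to 11.21 to 11.35 in mutants. In whole animals it changed by 0.51 (adjusted p = 0.0798). Its neighbour *CG5177* lay 8.44 log2 units lower in control fat bodies than in control whole animals (-8.44, adjusted p = 1.21e-07) and passed no test of genotype. In whole animals *CG5177* was at 12.77 to 13.17 in controls and 13.18 to 13.29 in mutants, groups that did not overlap. The SE of that difference (0.20, SE 0.55) includes the scatter in fat bodies, where values ran from 3.70 to 6.20. In mutant fat bodies *CG5171*, *Tret1-1* and *Tret1-2* thus rose and *Treh* fell, while *Tps1* and *CG5177* did not pass.

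**Figure D4:**
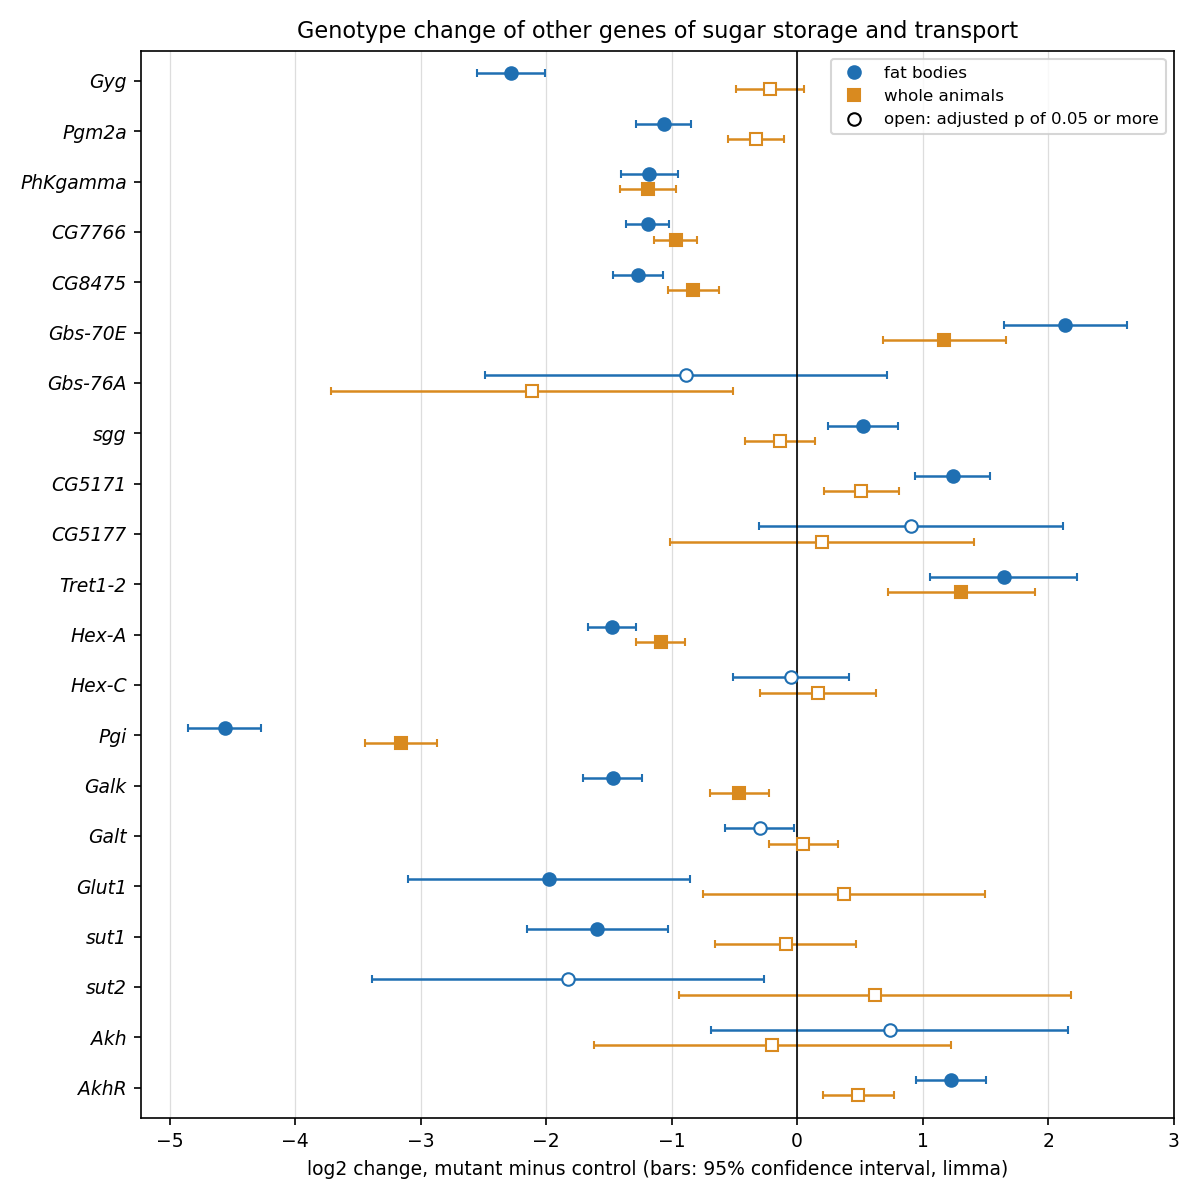
Log2 change (mutant minus control, horizontal axis) of the 21 other genes of sugar storage and transport that could be tested, in fat bodies (circles) and whole animals (squares), with 95% confidence intervals from limma and open symbols where the adjusted p was 0.05 or more. *Pgi* lies farthest below 0 in both kinds of sample, *Gyg* lies at -2.28 in fat bodies and -0.22 in whole animals, and *Gbs-70E* and *Tret1-2* lie above 0 in both.

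For each of the 9 genes the 3 genes with the most similar values were found by Pearson's r over the 12 samples, after the mean of each tissue was subtracted from each value. The coefficients describe mostly the step between genotypes that the samples share, and no p was attached. For *UGP* they were *Eno* (r = 0.997), *Ald1* and *Pglym78*, and for *Pgm1* they were *Eno* (r = 0.994), *Pglym78* and *UGP*. For *CG9485* they were *Pgm1* (r = 0.985), *Gapdh2* and *Pfk*, and for *GlyS* they were *Tpi* (r = 0.994), *Pgi* and *Mdh1*. Thus all 4 genes that fell in both kinds of sample had enzymes of glycolysis among their nearest 3. *GlyP* was nearest to *CG5254* (r = 0.980), *CG8036* and *CG9522*, and *AGBE* to *CG15370* (r = 0.962), *CG13443* and *Ldh*. The trehalose genes had other neighbours, with *LSm7* for *Tps1* (r = 0.954), *speck* for *Treh* (r = 0.974) and *CG9837* for *Tret1-1* (r = 0.971).

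A published list of genes near dERR binding sites, from chromatin of whole adult flies, was matched by gene ID. The choice of the 9 genes did not use this list, but it was made with earlier results of these data known. *GlyS*, *GlyP*, *AGBE*, *CG9485*, *Pgm1* and *UGP* are on the list, and *Tps1*, *Treh* and *Tret1-1* are not. It holds 98 of the 10069 genes tested, or 0.973%. The 6 genes on it are the 6 that fell in whole animals, and 4 of these 6 fell in fat bodies, where *GlyP* and *AGBE* did not pass. How many of all 258 genes that fell in whole animals are on the list was not counted. Of the 26 other genes of the pathway, 4 are on it (*PhKgamma*, *Gbs-76A*, *Hex-A* and *Pgi*). Among the 6 of these other genes that fell in whole animals, *PhKgamma*, *Hex-A* and *Pgi* are on the list, and *CG7766*, *CG8475* and *Galk* are not. A gene near a binding site is an annotation from another stage, and binding in larvae or in the fat body was not measured here.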

How the data were processed

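RNA-seq was performed by the authors on poly-A RNA from 12 samples of mid-L2 larvae (Illumina stranded, paired-end). Per the methods and the labels, transcript abundance was estimated with Salmon 1.10.2 against BDGP6.46 and its Ensembl v110 genes, aggregated per gene with tximport and transformed with the rlog function of DESeq2 1.42.0. The values deposited by the authors are these regularized log2 values, for 24134 genes, of which 10001 are at 0 in all samples. Depth per sample and counts are not given by these values, so the precision stated is that of the replicates alone. The labels and the methods name different RNA extraction kits.

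Groups were taken from the labels. Genes were tested where any group mean reached 3.32, the log2 of 10 (10069 genes). They were fitted with limma 3.58.1 under R 4.3.3, in 1 model of all 12 samples with 1 mean per group and a variance trend. All adjusted p-values are from limma's moderated tests, two-sided, with Benjamini-Hochberg adjustment over all genes tested, and a gene was called at an adjusted p under 0.05. The study's test, on shrunken changes from counts, could not be run on log2 values.

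Genes named are the 9 members, a list of other genes of the pathway, for each member the 3 genes of highest correlation, and *ERR*. These members and lists were chosen with earlier results of these data known. One gene of the list is not reported here and is left out of its counts. The names Glycogenin and UGP2 matched no row, and *Pgm2b*, *CG6262*, *G6P*, *sut3* and *sut4* did not reach the filter. Positions are from the Ensembl 115 annotation of BDGP6.54. No sequences were analysed here. Alternatives were no filter, a higher filter of 5.64 (log2 of 50), separate fits of each tissue, array weights, no variance trend, median centring, quantile normalization, an adjusted p under 0.005, treat, a replicate block in whole animals, and each sample left out in turn. Figures were drawn with matplotlib 3.10.9.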

Additional observations from a re-analysis of the deposited data

Results flagged for a closer look

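The genotype change differed between fat bodies and whole animals for 4 of the 9 genes, by the test of the difference itself. It was -0.95 on the log2 scale for *GlyS*, which changed by -2.62 in fat bodies and -1.67 in whole animals (limma adjusted p = 0.00112). For *GlyP* it was 1.75, with changes of 0.23 and -1.52 (adjusted p = 0.000665). For *AGBE* it was 1.11, with changes of -0.45 and -1.56 (adjusted p = 0.0162). For *Treh* it was -1.27, with changes of -0.92 and 0.35 (adjusted p = 0.000853). Fat body and whole animal samples also differ in the tissues they hold, and what part of each difference that makes was not tested.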

How the results depend on the processing

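The main counts of called genes among the 9 were 6 in fat bodies, 7 in whole animals, 4 for the interaction and 8 for the tissue difference in controls. With the treat test they were 3 in fat bodies, 4 in whole animals and 3 for the tissue difference, and quantile normalization over all samples gave 7 for the interaction. Leaving out each sample in turn gave 6 to 7, 7 to 7, 4 to 5 and 8 to 8. The tissue difference of *GlyP* reversed after quantile normalization within each tissue (-0.0579) and over all samples (-0.5261). *GlyP* in fat bodies passed after quantile normalization (0.41, adjusted p = 0.0294, and 0.38, adjusted p = 0.0444, over all alternatives 0.0294 to 0.824), and the interaction of *AGBE* did not pass without a filter (adjusted p = 0.0781, over all alternatives 0.00288 to 0.0781). *Treh* in whole animals passed after quantile normalization over all samples (0.40, adjusted p = 0.0336), which also took the interactions of *CG9485*, *Pgm1* and *UGP* past the threshold, as array weights did for *CG9485* and *Pgm1*. Of the values under alternatives for single genes, 730 kept their direction and side of the threshold, 13 newly passed, 2 no longer passed and 2 reversed. Over all genes, the 2242 calls in fat bodies became 1257 with each tissue alone, 1124 at 0.005 and 320 with treat. The 331 calls in whole animals became 710 with each tissue alone, 955 with array weights, 728 with quantile normalization over all samples, 165 at 0.005 and 124 with treat. The 1032 interaction calls became 659 without a filter, 686 without whole animal control 1 and 329 at 0.005, and the 7217 tissue calls became 3709 with treat. With a replicate block in whole animals the counts among the 9 stayed at 6, 7, 4 and 8. Deviations of same-numbered whole animal samples correlated at r = -0.021, -0.047 and -0.126, so no shared deviation was seen. These values cannot tell whether such samples were collected together. Of the whole animal calls, the 73 that rose became 302 with array weights, 318 with quantile normalization over all samples, 211 with each tissue alone and 124 with quantile normalization within each tissue. Depth is unknown, and the intervals rest on 3 samples a group. Each gene has 1 estimate of spread, shared by both kinds of sample. For *CG9485* the SE was 0.1884 in both, and with each tissue alone 0.2272 in fat bodies and 0.1104 in whole animals.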

Other observations

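The hexose phosphate genes of the list feed or drain the same pool of glucose-6-phosphate and UDP-glucose. *Pgi*, the phosphoglucose isomerase of glycolysis, fell in fat bodies and in whole animals (log2 change -4.56 and -3.15, limma adjusted p = 1.51e-08 and 2.5e-07). Its mutant fat bodies were at 9.19 to 9.59 against 13.77 to 14.05 in controls. *Hex-A*, a hexokinase, fell too (-1.48 and -1.09, adjusted p = 9.78e-07 and 3.71e-05), while the fat body hexokinase *Hex-C* changed by -0.05 and 0.17 (adjusted p = 0.894 and 0.936). *Galk*, a galactokinase, fell by 1.47 in fat bodies (adjusted p = 4.37e-06) and by 0.46 in whole animals (adjusted p = 0.0404). *Galt* changed by -0.30 in fat bodies (adjusted p = 0.116).

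Among the sugar transporters, *sut1* fell by 1.59 in fat bodies, from 13.18 to 13.97 in controls to 11.49 to 12.41 in mutants (adjusted p = 0.00107), and was at -0.09 in whole animals. *Glut1* fell by 1.98 in fat bodies (adjusted p = 0.0168), where its values were low and scattered, at 4.16 to 6.60 in controls and 2.96 to 4.10 in mutants. *AkhR*, the receptor of adipokinetic hormone, which mobilizes fat body stores, rose 2.34-fold in fat bodies (1.23, adjusted p = 5.57e-05) and changed by 0.49 in whole animals (adjusted p = 0.0754). Its fat body values were 10.63 to 10.87 in controls and 11.87 to 12.03 in mutants.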
